A study of Mus musculus with 18 samples.

Results

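The miR-101 pair consists of mmu-miR-101a and mmu-miR-101b, the mature products of a pair of unlinked mouse loci, and was followed in the liver of mice given benzo(a)pyrene (BaP). Members were taken by name: every non-control spot of the arrays named for either miRNA was used, which gave 2 of the 576 names on the array and 4 of its 1712 probes. Of these 4 probes, 3 were present often enough to be tested, so that both miRNAs were among the 69 tested. No measured value was used to choose the pair.

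The study asked whether a mutagenic dose of BaP, a polycyclic aromatic hydrocarbon activated in the liver to metabolites that bind DNA, alters hepatic miRNA. All 18 animals were male Muta™Mouse (transgenic strain 40.6, which carries lacZ as a mutation target), 25 weeks old by the labels, gavaged daily for 28 days with olive oil and killed 3 days after the last dose. The 3 control animals received the olive oil alone, and 5 animals at each dose received BaP in it at 25, 50 or 75 mg/kg/day. Each array held RNA of 1 animal and lay on 1 of 3 slides. Other control animals are not analysed here.

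MiR-101 is known as a repressor of Ezh2, the catalytic subunit of Polycomb repressive complex 2, which methylates histone H3 on lysine 27 and silences the genes it marks. Its loss is a recurrent feature of tumours, liver tumours among them, where it is regarded as a tumour suppressor. A miRNA finds its target mRNAs mainly by pairing of its seed, the short run of bases next to its 5′ end, so that small differences between family members at that end can matter.

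The mature sequences are shown because the pair shares most of its bases but differs in annotated start and towards the 3′ end. Both names of the array carry no star, which in the naming of that time marked the main arm, and were matched to the 3p products in RefSeq (GRCm38.p6). The sequence of miR-144, an erythroid miRNA, is shown beside them because it shares bases with the seed of miR-101a. Capitals mark bases 2 to 8 of each annotated product.
mmu-miR-101a-3p: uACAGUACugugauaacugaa
mmu-miR-101b-3p: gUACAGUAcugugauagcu
mmu-miR-144-3p: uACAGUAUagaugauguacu

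The product of Mir101a lies on the minus strand at chr4:101346957-101346977, within the span of E130102H24Rik on the same strand. That of Mir101b lies on the plus strand at chr19:29135338-29135356, within the span of Rcl1, also on the same strand. The annotated miR-101b product started 1 base further upstream than that of miR-101a, so that the same run of letters is read in a shifted frame. Over the 18 bases that then aligned, 17 were identical and the single difference was A16G, with positions counted from the 5′ end of miR-101a. At the 3′ end miR-101a ran 3 bases beyond miR-101b. By these annotated starts the 7-base seeds differed, and each was unique among the 1738 mature entries. Bases 2 to 7 of miR-101a recurred only in miR-144, and those of miR-101b only in miR-582-5p, whose 2 probes were present on 0 arrays. Both probes of each member therefore face targets that differ by few bases. Probe sequences were not used here, and how far a probe for one member captured the other was not tested.

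The arrays differed by slide. Slide 1 was the dimmest, with a median signal over the non-control spots of 39.5 to 50.5 per array, against 63 to 69 for slide 2 and 58 to 64 for slide 3. The number of names that Agilent's software marked as detected ran from 57 to 144, and the 2 arrays with the fewest, 57 and 70, came from the 25 mg/kg/day group of slide 3. The hepatocyte miRNAs miR-122 and miR-192 were present on all 18 arrays. Of the 7 arrays on slide 1, 1 was a control and each dose had 2. Of the 4 on slide 2, none was a control, and 50 and 75 mg/kg/day had 2 each. The 7 on slide 3 comprised 2 controls and 3, 1 and 1 arrays in rising order of dose.

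Both members were detected on every array, but at modest signal. Each probe was printed on 10 spots, and its signal is given as the median over them in scanner units, on a linear scale. Presence of a probe on an array required the scanner's above-background flag on a share of 0.5 or more of its spots. Of the miR-101a probes, A_54_P4365 was present on 18 of 18 arrays with signals from 87.8 to 212, and A_54_P2268 on 17 of 18 with signals from 74.0 to 178. The array on which A_54_P2268 was not present was 1 of the 2 at 25 mg/kg/day with the fewest detected names.

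The miR-101b probes behaved differently from each other. A_54_P2594 was present on 18 of 18 arrays with signals from 83 to 276, the widest range of the 4 probes. A_54_P2593 was present on 6 arrays, all of slide 1, with signals from 61.5 to 79.2 over all arrays, and was left out, so that miR-101b rested on 1 probe. Local background lay between 29 and 42.2 around all 4 probes. The spots of a probe on one array varied by a standard deviation between 0.02 and 0.14 on the log2 scale.

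**Figure D1:**
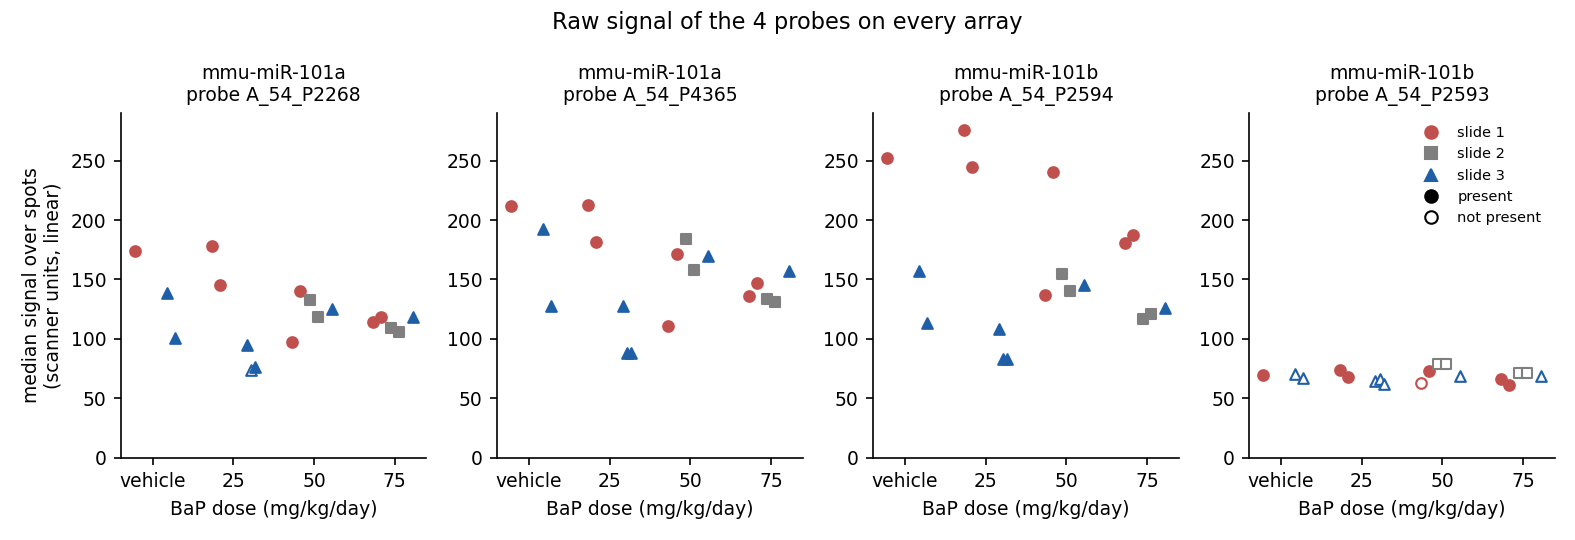
Median signal over the 10 spots of each of the 4 probes (vertical axis, scanner units, linear) on every array, by BaP dose (horizontal axis), with slide shown by colour and symbol and open symbols where the probe was not present. Probe A_54_P2593 stayed between 61.5 and 79.2 and was present on slide 1 only, whereas A_54_P2594 reached 276 there.

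Most of the variation of the pair lay between slides rather than between doses. After normalisation between arrays, miR-101a ranged from 7.14 to 7.31 over the 7 arrays of slide 1, from 6.88 to 6.96 over the 4 of slide 2 and from 6.89 to 7.01 over the 7 of slide 3 (log2 signal). The range of miR-101b was 7.65 to 7.86 for slide 1, 6.91 to 6.96 for slide 2 and 6.75 to 7.02 for slide 3. For both members, every array of slide 1 was above every array of slides 2 and 3, which overlapped each other.

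With dose accounted for, slide 1 exceeded slide 3 by 0.33 in miR-101a and by 0.83 in miR-101b on the log2 scale, while slide 2 exceeded slide 3 by only 0.04 and 0.07. By size, the difference of miR-101b ranked 2 among the 69 miRNAs and that of miR-101a ranked 20. Slide took 96.9% of the variance of miR-101b over the 18 arrays, the highest share of the 69 miRNAs, and 91.2% of that of miR-101a, against a median of 54.9% over all 69. The raw signals of the miR-101a probe A_54_P2268 on slides 1 and 3 overlapped (97.2 to 178 and 74.0 to 138). Those of A_54_P2594, the tested probe of miR-101b, ran from 137 to 276 on slide 1 and from 83 to 157 on slide 3. The only slide 1 array within that slide 3 range was replicate 1 at 50 mg/kg/day (137). Slide 1 had the lowest median signal of all spots. Slide was therefore a block in every comparison below.

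**Figure D2:**
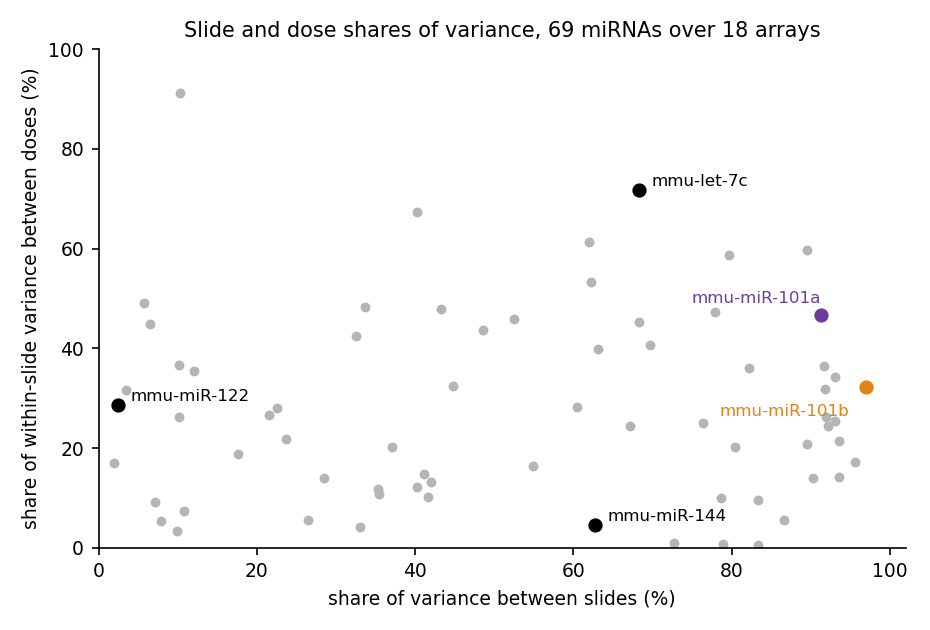
Share of variance between slides (horizontal axis, %) and share of the variance left within slides that lay between doses (vertical axis, %), for the 69 miRNAs tested over 18 arrays. The pair sits at the right edge, with 91.2% and 96.9% of its variance between slides, and let-7c, miR-144 and miR-122 are marked for comparison.

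Within slides the spread of miR-101a was small on this scale, which keeps local background in the signal, and that of miR-101b was nearer the median. The residual standard deviation after slide and dose was 0.0418 for miR-101a, rank 3 from the smallest among the 69 miRNAs. For miR-101b it was 0.0706, rank 27, against a median of 0.0807. Dose took 46.7% of the variance within slides for miR-101a and 32.3% for miR-101b, against a median of 25.4% over all 69.

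On slide 1, miR-101a read 7.31 in the control, 7.27 and 7.31 after the low dose of 25 mg/kg/day, 7.22 and 7.22 after the middle dose and 7.14 and 7.18 after the high dose. On slide 3 its controls read 7.01 and 6.95, the low-dose animals 6.89, 6.90 and 6.89, the middle-dose animal 6.95 and the high-dose animal 6.90. On slide 2 the middle dose gave 6.94 and 6.88 and the high dose 6.96 and 6.91. On slide 1 the 25 mg/kg/day readings thus lay on either side of the only control, 1 above it by less than the decimals given. From there the readings stepped down at 50 and 75 mg/kg/day. On slide 3 they were below both controls at every dose (at 50 mg/kg/day by less than the decimals given). The doses of slide 2 overlapped. The low reading of the 75 mg/kg/day group on slide 1 was not matched by a gap between 25 and 75 mg/kg/day on slide 3.

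For miR-101b, slide 1 gave 7.68 in the control, 7.72 and 7.86 after the low dose, 7.65 and 7.83 after the middle dose and 7.67 and 7.67 after the high dose. On slide 3 its controls read 6.93 and 6.96, the low-dose animals 6.86, 7.02 and 6.97, the middle-dose animal 6.90 and the high-dose animal 6.75. On slide 2 the middle dose gave 6.91 and 6.92 and the high dose 6.92 and 6.96. The highest readings of miR-101b on slides 1 and 3 were thus at 25 mg/kg/day and its lowest reading on slide 3 was at 75 mg/kg/day, while slide 2 showed no fall between the doses it held.

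**Figure D3:**
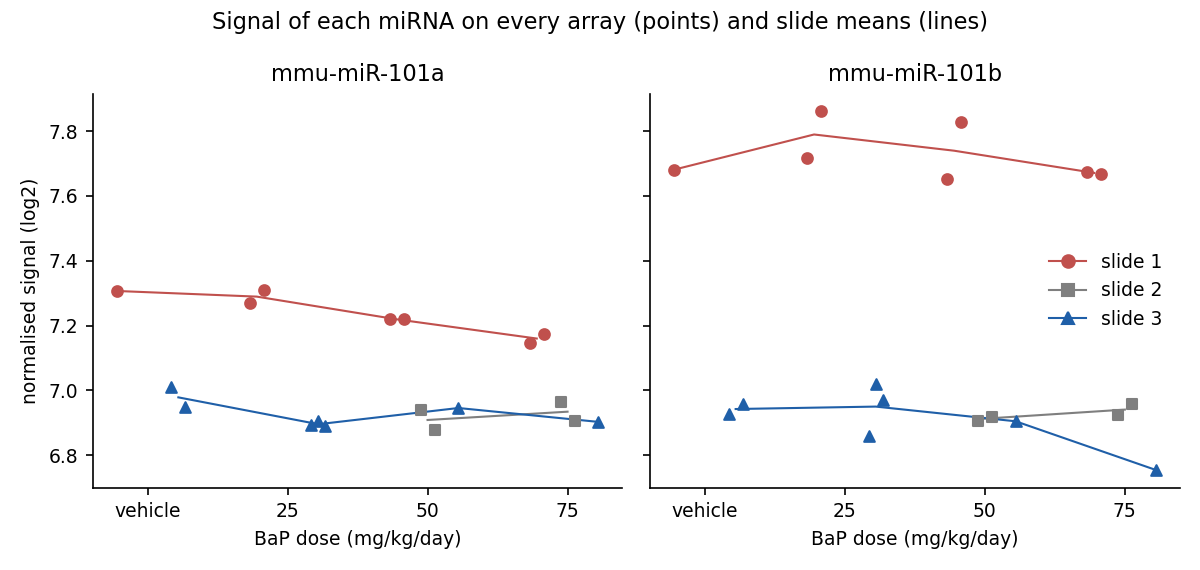
Normalised log2 signal (vertical axis) of miR-101a and miR-101b on each of the 18 arrays by BaP dose (horizontal axis), with slide shown by colour and symbol and lines joining the means of each slide. With dose accounted for, slide 1 lies above slide 3 by 0.33 for miR-101a and 0.83 for miR-101b and above slide 2 by 0.29 and 0.76, each more than any slide-adjusted difference between doses.

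Over all arrays of a group, the mean of miR-101a was 7.09 ± 0.19 (SD, n = 3) without BaP, and 7.05 ± 0.22, 7.04 ± 0.17 and 7.02 ± 0.13 (SD, n = 5 each) at the 3 doses in rising order. Adjusted for slide, these levels became 7.10, 7.04, 7.02 and 6.99, in order of dose. Neighbouring doses differed by −0.06 ± 0.03, −0.03 ± 0.03 and −0.02 ± 0.03 (SE), each under 2 standard errors. That of miR-101b was 7.19 ± 0.43 (SD, n = 3) without BaP, and 7.29 ± 0.47, 7.24 ± 0.46 and 7.20 ± 0.44 (SD, n = 5 each) at the doses. Its slide-adjusted levels were 7.21, 7.25, 7.18 and 7.14, and no neighbouring doses were separated by 2 standard errors.

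MiR-101a did not pass the threshold at any dose. At 25 mg/kg/day its log2 change from control was −0.06 ± 0.04 (SE, FDR-adjusted P = 0.544), in a comparison in which limma called 0% of the 69 miRNAs and 7 had an unadjusted P under 0.05. At 50 mg/kg/day it was −0.08 ± 0.04 (FDR-adjusted P = 0.281), with 2.9% of the 69 called. At 75 mg/kg/day it was −0.11 ± 0.04 (FDR-adjusted P = 0.0926), a fold change of 0.929 with a 95% interval from 0.875 to 0.986, with 5.8% of the 69 called. On the log2 scale this interval ran from −0.19 to −0.02, against −0.34 to 0.30 with background-subtracted processed signal and −0.30 to 0.48 with total gene signal. The unadjusted P at 75 mg/kg/day was 0.0182, and 18 of the 69 miRNAs had an unadjusted P under 0.05 there. The median change of all 69 was −0.02, −0.02 and −0.03 at the 3 doses. Scaled on background-subtracted signal, miR-101a rose above 0 at 50 mg/kg/day (0.06, and 0.11 for Agilent's total gene signal) and, for total gene signal, at 75 mg/kg/day (0.09), but the median of all miRNAs then stood at 0.10 to 0.18. Relative to the median of all miRNAs, miR-101a was lower than control at each dose under all 17 alternatives, which reuse the same animals. For 75 against 25 mg/kg/day it was below that median under 10 of 17, and in the slope under 16 of 17.

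MiR-101b did not pass the threshold at any dose either. Its log2 change was 0.04 ± 0.05 (SE, FDR-adjusted P = 0.732) at 25, −0.03 ± 0.06 (FDR-adjusted P = 0.910) at 50 and −0.08 ± 0.06 (FDR-adjusted P = 0.420) at 75 mg/kg/day. The 95% interval of its fold change at 75 mg/kg/day ran from 0.872 to 1.03. Fold changes down to 0.875 for miR-101a and 0.872 for miR-101b thus lay inside the intervals at the highest dose, so that these arrays do not show that the pair was unaffected. Because background was not subtracted, the size of a change in these log2 signals need not be that of the change in the RNA itself. With background-subtracted processed signal, which was also scaled differently, miR-101a changed by −0.02 at 75 mg/kg/day. With total gene signal the change at that dose was 0.09 for miR-101a and 0.13 for miR-101b.

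**Figure D4:**
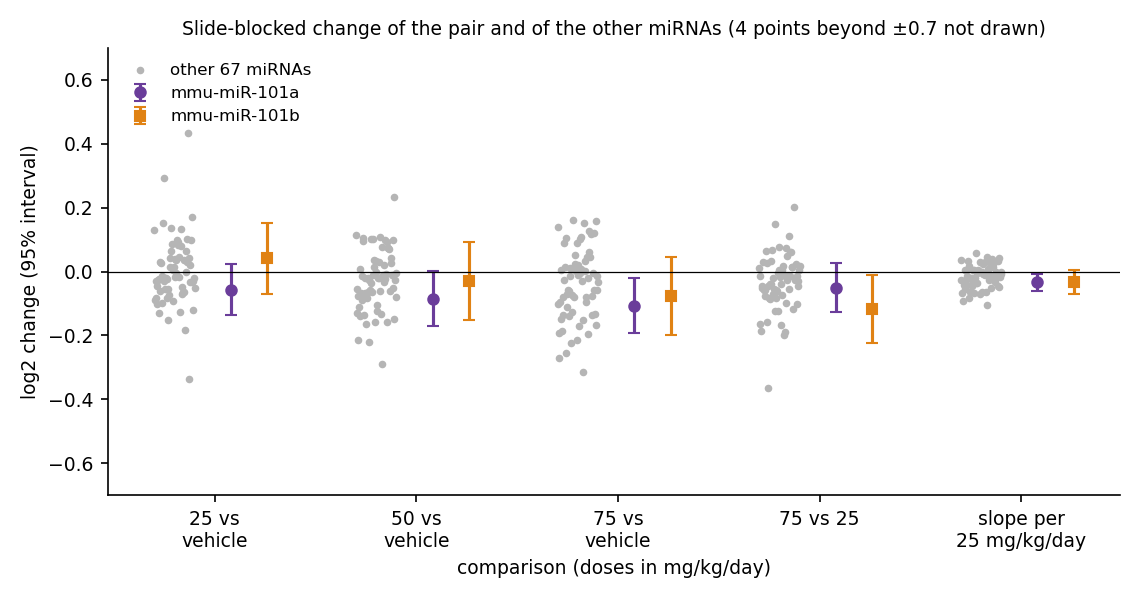
Log2 change (vertical axis) in each comparison, with slide as a block, for miR-101a and miR-101b with 95% intervals and for the other 67 miRNAs as grey points (4 points beyond ±0.7 are not drawn). MiR-101a lies below 0 in all 5 comparisons, its interval at 75 mg/kg/day runs from −0.19 to −0.02, and neither member passed the FDR threshold in any.

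Against the controls on their own slide, all 3 arrays at 75 mg/kg/day that shared a slide with a control were below it for miR-101a, as were all 3 at 50 mg/kg/day. The same held for 30.4% of the 69 miRNAs at 75 and 27.5% at 50 mg/kg/day, so the order alone did not set miR-101a apart. At 25 mg/kg/day 4 of 5 arrays were below the controls of their slide and 1 was above, where 7.25% of the miRNAs had all 5 below. Exact permutation within slides (two-sided) gave P = 0.0667 at 25 mg/kg/day and P = 0.111 at 50 and at 75 mg/kg/day, where 0.111 is the smallest P the 9 possible arrangements allow. For miR-101b 4 of 5 arrays at 25 mg/kg/day were above the controls of their slide, where 4.35% of the 69 had all 5 above, 2 of 3 at 50 were below and 3 of 3 at 75 were below, with exact permutation P = 0.5, 1.0 and 0.111.

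Both probes of miR-101a were below control at each dose in the slide-blocked fit. At 50 mg/kg/day the log2 change was −0.11 ± 0.05 (SE, FDR-adjusted P = 0.207) for A_54_P2268 and −0.06 ± 0.04 (FDR-adjusted P = 0.442) for A_54_P4365. At 75 mg/kg/day the log2 change was −0.11 ± 0.05 (SE, FDR-adjusted P = 0.146 over 112 probes) for A_54_P2268 and −0.10 ± 0.04 (FDR-adjusted P = 0.105) for A_54_P4365, where 7.14% of the probes were called. At 25 mg/kg/day all 5 arrays of A_54_P2268 were below the controls of their slide and 4 of 5 of A_54_P4365 were, where 8.04% of the 112 probes had all 5 below. The 1 array on which A_54_P2268 was not present was among those 5. None of the 3 tested probes of the pair passed in any comparison, while limma called 0% of the 112 probes at 25, 2.68% at 50, 2.68% for 75 against 25 and 9.82% over dose.

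Between the doses, 75 against 25 mg/kg/day, miR-101a changed by −0.05 ± 0.04 (SE, FDR-adjusted P = 0.554) and miR-101b by −0.12 ± 0.05 (FDR-adjusted P = 0.273), where limma called 2.9% of the 69 miRNAs. For miR-101b all 3 arrays at 75 mg/kg/day that shared a slide with the 25 mg/kg/day group were below every array of it, as in 14.5% of the 69 miRNAs. Exact permutation within slides gave P = 0.0417 for miR-101b, the smallest the 24 arrangements allow, and P = 0.25 for miR-101a. Neither P is adjusted over the 15 within-slide tests run on the members and their difference. The miR-101b change turned sign under 3 of 17 alternatives. These comparisons use the same 75 mg/kg/day arrays as those against control.

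Over all doses the slope of miR-101a was −0.03 ± 0.01 (SE) on the log2 scale per 25 mg/kg/day (FDR-adjusted P = 0.0939), in a test that called 10.1% of the 69 miRNAs. Exact permutation of the doses within slides, for this slope alone, gave P = 0.00872 over 1587600 arrangements. It is 1 of 15 within-slide tests run on the members and on their difference. The same tests were also run on each probe of the pair. This P has no adjustment over any of these tests or over the other miRNAs. The slope of miR-101a was −0.05 over the 7 arrays of slide 1, 0.03 over the 4 of slide 2 and −0.02 over the 7 of slide 3. Without slide 1 it was −0.01 (FDR-adjusted P = 0.777), so the fall with dose rested largely on that slide. The slope of miR-101b was also −0.03 ± 0.02 (SE, FDR-adjusted P = 0.266, exact permutation P = 0.121), but its steepest fall, −0.06, was on slide 3, against −0.02 on slide 1 and 0.03 on slide 2.

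Whether the members moved apart was asked with their difference on each array. On the log2 scale miR-101a minus miR-101b ranged from −0.61 to −0.37 over slide 1, from −0.05 to 0.04 over slide 2 and from −0.12 to 0.15 over slide 3. The difference was thus negative on every array of slide 1 and straddled 0 elsewhere. Within slides, exact permutation of this difference gave P = 0.1 at 25, P = 0.444 at 50 and P = 1.0 at 75 mg/kg/day against control, P = 0.292 for 75 against 25 mg/kg/day and P = 0.985 for the slope. At 50 and at 75 mg/kg/day against control the arrangements allow no P below 0.111, so these tests could not have passed 0.05 and do not show that the members moved alike. The members correlated at r = 0.95 over the 18 arrays before slide means were removed and at r = 0.28 afterwards, both as descriptions of arrays that share slides and normalisation.

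The miRNAs whose pattern over the 18 arrays was most like that of each member, after slide means were removed, were not the partner. For miR-101a they were let-7c (r = 0.81), miR-7a (r = 0.69) and let-7i (r = 0.65), and miR-101b ranked 28 of 68. For miR-101b they were miR-365 (r = 0.72), miR-21 (r = 0.45) and miR-122 (r = 0.43), and miR-101a ranked 13 of 68. The seed relative miR-144 had r = −0.41 with miR-101a and −0.51 with miR-101b, ranks 59 and 64 of 68, so other miRNAs ran more opposite. Before slide means were removed its r was 0.68 and 0.72. These values describe arrays that share groups and slides, and say nothing of shared control.

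Other miRNAs tied to Ezh2 in general knowledge formed a list of 12, of which 7 were tested. Among these, let-7c, a member of the growth-restraining let-7 family, fell by 0.21 at 50 mg/kg/day (FDR-adjusted P = 0.0458) and by 0.27 at 75 mg/kg/day (FDR-adjusted P = 0.00533) on the log2 scale. MiR-26b, of a family that also represses Ezh2, passed in the dose slope alone among the 5 comparisons, with a slope of −0.10 per 25 mg/kg/day (FDR-adjusted P = 0.0466), as did let-7c with a slope of −0.09 (FDR-adjusted P = 0.00135). In the list 0 of 7 passed at 25, 1 of 7 at 50, 1 of 7 at 75, 1 of 7 for 75 against 25 mg/kg/day and 2 of 7 over dose, all lower, where limma called 0%, 2.9%, 5.8%, 2.9% and 10.1% of the 69 miRNAs. Let-7a, let-7b, miR-25, miR-26a and miR-98 passed in none of the 5. Between 75 and 25 mg/kg/day let-7c differed by −0.19 (FDR-adjusted P = 0.0449). Under all 17 alternatives let-7c and miR-26b kept their direction in these comparisons, but the calls were less stable. For let-7c the call was kept by 2 of 17 at 50 mg/kg/day, by 12 of 17 at 75 mg/kg/day, by 3 of 17 for 75 against 25 and by 10 of 17 over dose, and for miR-26b by 5 of 17 over dose. With total gene signal the change of let-7c was −0.04 at 50, −0.03 at 75 and −0.02 for 75 against 25 mg/kg/day, and its slope −0.01 (FDR-adjusted P from 0.648 to 0.767), and the slope of miR-26b was −0.03.

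On leaving out 1 array at a time, the call of let-7c was kept 6 of 18 times at 50 mg/kg/day and for 75 against 25, 17 times at 75 mg/kg/day and 18 times over dose, and that of miR-26b 8 times over dose. Control replicate 1 was the only control on slide 1. Without it, let-7c changed by −0.16 at 50 (FDR-adjusted P = 0.458) and by −0.21 at 75 mg/kg/day (FDR-adjusted P = 0.107), its slope was −0.08 (FDR-adjusted P = 0.0176), and the slope of miR-26b was −0.05 (FDR-adjusted P = 0.234). Without slide 1, let-7c changed by −0.17 at 75 mg/kg/day (FDR-adjusted P = 0.115) with a slope of −0.06 (FDR-adjusted P = 0.0932), and the slope of miR-26b was −0.03 (FDR-adjusted P = 0.651).

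The median log2 change of the 7 was −0.03, −0.13 and −0.15 at 25, 50 and 75 mg/kg/day, beside −0.02, −0.02 and −0.03 over all 69 miRNAs. All 7 were below 0 at 50 and at 75 mg/kg/day, as were 66.7% and 60.9% of the 69. The let-7 probes face closely related sequences, so these members are not independent. Of the 5 not tested, miR-138, miR-124, miR-214 and miR-217 were present on 0 arrays and miR-30d on 5. The other arm of the Mir101a hairpin, miR-101a*, was present on 0 arrays with any of its 4 probes.

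Markers of other liver cells were read beside the pair. MiR-199a-3p, abundant in mesenchymal cells such as stellate cells, fell by 0.22 at 75 mg/kg/day (log2, FDR-adjusted P = 0.00931) and was the 1 tested member of a list of 5, the others of which were not present often enough. Limma called 5.8% of the 69 miRNAs at that dose and 10.1% over dose. The median normalised signal of miR-199a-3p was 6.61 in controls and 6.38 at 75 mg/kg/day. These medians are not adjusted for slide, and with dose accounted for its slide 1 minus slide 3 difference was −0.10. Leaving out control replicate 1 gave a change of −0.20 (FDR-adjusted P = 0.107), leaving out slide 1 one of −0.18 (FDR-adjusted P = 0.136), and the call was kept by 11 of 17 alternatives. Its slope was −0.07 per 25 mg/kg/day (FDR-adjusted P = 0.00384), a call kept by 10 of 17 alternatives and lost without slide 1 (−0.06, FDR-adjusted P = 0.126). The endothelial miR-126-3p (−0.06, FDR-adjusted P = 0.519), the hepatocyte miR-122 (0.11) and miR-192 (0.0068) did not pass at that dose.

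The list of blood cells held 9 miRNAs, of which the erythroid miR-144 and miR-451 and the myeloid miR-223 could be tested and 0 passed in any of the 5 comparisons, while miR-142-5p, miR-150, miR-486 and miR-155 were present on 0 arrays. The mean log2 signal of the 3 lay between 7.12 and 7.50 in controls and between 6.69 and 7.74 at 75 mg/kg/day. The part of other cell types in the values of the pair was not tested, and in whole liver fewer cells of a type and less RNA per cell cannot be told apart. With the number of detected names as a covariate, the change of miR-101a at 75 mg/kg/day was −0.09 (FDR-adjusted P = 0.106).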

How the data were processed

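Small-RNA-containing total RNA was labelled with cyanine 3 and hybridised to 1-colour Agilent mouse miRNA arrays, 1 per animal. The authors deposited spot intensity values from Agilent Feature Extraction 10.7.3.1 (linear, not normalised between arrays) and a table of log2 values per miRNA whose centring is unknown, used as an alternative only. It correlated with the log2 median signal at 0.990 to 0.998 across 574 names, with column medians of 5.74 to 5.76. As in the methods of the study, the median signal was used without background subtraction, log2-transformed and normalised by cyclic loess over 11540 non-control spots, and replicate spots were reduced to their median per probe. Outlier spots by the scanner's flags (1.91% to 3.84% per array) were removed, 0 spots were saturated, and present probes of a miRNA were averaged. Probes were kept when present in at least 1 group on a share of 0.8 or more of its arrays, which left 112 probes of 69 names, 1 of them viral.

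Groups came from the labels, which carry no replicate numbers. Comparisons used limma 3.58.1 (lmFit, eBayes) in R 4.3.3 on all 18 arrays with slide as a fixed block, two-sided, with Benjamini-Hochberg adjustment over the 69 miRNAs (or 112 probes) and a threshold of 0.05; slopes are per 25 mg/kg/day. The fit was tested on simulated data with planted changes at the highest dose larger than any fitted for the pair. That test does not show whether changes as small as those of the pair could be found. Exact permutation tests shuffled labels within slides. The miRNAs named were both members with every probe, 3 lists (Ezh2-linked, other arms and seed relatives, cell markers), of which the members past the threshold were given values, and the 3 miRNAs most like each member. Members and lists were chosen with earlier results of these data known. Other settings (14, plus 3 chosen after seeing the data) and leaving out each of the 18 arrays were tried. No pair of arrays was identical, and the number of arrays limits the precision.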

Additional observations from a re-analysis of the deposited data

How the results depend on the processing

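Neither member passed the threshold under 17 alternatives or on leaving out any array, except miR-101a at 25 mg/kg/day with the authors' deposited values (−0.26, limma FDR-adjusted P = 0.0484 over the 69 miRNAs, whose median was −0.11). Over all 574 names of that table, an alternative chosen after seeing the data, the FDR-adjusted P was 0.138, and over all alternatives it ranged from 0.0484 to 0.968. Another scaling moved the median of all miRNAs by over 0.1: at 75 mg/kg/day it was −0.25 with array medians centred and 0.18 with total gene signal.

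The sign turned with background-subtracted processed signal for miR-101a at 50 mg/kg/day (0.055), 75 against 25 mg/kg/day (0.20) and the slope (0.021), and for miR-101b at 25 (−0.077), 50 (0.19) and 75 mg/kg/day (0.0079), 75 against 25 (0.085) and the slope (0.018). With total gene signal it turned for miR-101a at 50 (0.11), 75 (0.089), 75 against 25 (0.38) and the slope (0.070), and for miR-101b at 25 (−0.12), 50 (0.24), 75 (0.13), 75 against 25 (0.25) and the slope (0.067). With quantile normalisation it turned for miR-101a at 75 against 25 (0.076) and for miR-101b at 25 (−0.072), 50 (0.033) and 75 against 25 (0.018). With the deposited values it turned for miR-101a at 75 against 25 (0.041) and miR-101b at 25 (−0.10), with array medians centred for miR-101b at 25 (−0.26), and with no slide block for miR-101b at 50 (0.053) and 75 mg/kg/day (0.0070). Without slide 1, also chosen after seeing the data, miR-101a at 75 against 25 was 0.030. In these cases the cause was not tested.

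Leaving out 1 array at a time gave ranges for miR-101a of −0.073 to −0.041 at 25, −0.11 to −0.070 at 50, −0.12 to −0.089 at 75, −0.067 to −0.028 for 75 against 25 and −0.040 to −0.028 for the slope. For miR-101b they were −8.8e-05 (without control replicate 1) to 0.067 at 25, −0.078 to −0.0081 at 50, −0.12 to −0.031 at 75, −0.14 to −0.074 for 75 against 25 and −0.050 to −0.014 for the slope. The count of miRNAs past the threshold ranged over the alternatives from 0 to 7 at 25, 0 to 4 at 50, 1 to 9 at 75, 0 to 4 for 75 against 25 and 1 to 13 for the slope. No paired analysis was possible because each array held RNA of a different animal, given a single treatment.

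Signal close to background, 3 controls and a slide 2 without a control limit what these arrays can show.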
